A study of Mus musculus with 24 samples.

Results

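The diet contrast after 3 weeks set 4 libraries of mice fed a high-fat diet against 4 libraries of mice fed a control diet, 8 of the 24 libraries of the series. Its members were chosen by column label alone, and all 1907 mature microRNA (miRNA) names of the table entered, of which 558 had enough counts to be tested. The tissue was subcutaneous adipose tissue, a white fat depot beneath the skin, and the readout was small RNA sequencing. The other 16 libraries, from day 1 and week 1, entered the model so that all groups shared 1 estimate of the spread. Both week 3 groups carried no treatment other than diet in the labels. Strain, sex, age, the composition of the diets and whether a library held 1 animal or a pool are not stated in the sources used here, so the p-values reflect how far these particular samples vary, and that variation may be technical. The series title concerns a loss of DICER during high-fat feeding, and the comparison asks which mature miRNAs differed between the diets after 3 weeks.

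A miRNA is cut from a hairpin precursor, first by Drosha in the nucleus and then by DICER in the cytoplasm. The cut leaves a duplex of a 5p and a 3p strand, of which 1 strand, the guide, is usually retained in an Argonaute protein and the other, the passenger, is mostly degraded. The guide pairs with messenger RNAs chiefly through its seed, bases 2 to 8 from its 5′ end, and lowers their stability and translation. In adipose tissue miRNAs are known to act in adipocyte differentiation, lipid storage, browning and inflammation, and loss of DICER in adipocytes is known to impair fat tissue in mice. A few miRNAs do not need 1 of the 2 enzymes: miR-451a is cut by Argonaute 2 in place of DICER, and mirtrons such as miR-877 are released by splicing in place of Drosha.

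The first 2 sequences are the let-7 guides with the highest levels, which share the seed GAGGUAG, and the third is the passenger of the let-7i hairpin, which had the smallest unadjusted p of the contrast. Capitals mark bases 2 to 8, and all sequences are from RefSeq for the mouse build GRCm38.p6.
let-7i-5p: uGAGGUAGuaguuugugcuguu
let-7g-5p: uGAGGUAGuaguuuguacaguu
let-7i-3p: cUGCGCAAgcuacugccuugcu
Counted from the 5′ end, with the base of let-7i-5p first, let-7g-5p differs from let-7i-5p by G17A and U19A, both outside the seed. The let-7i hairpin follows with its 2 arms in capitals, the 5p arm first.
let-7i hairpin: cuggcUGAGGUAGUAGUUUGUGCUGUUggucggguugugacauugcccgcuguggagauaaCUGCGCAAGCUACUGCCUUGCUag
It lies on the minus strand of chromosome 10, from 122985640 to 122985724 (mm10), where GENCODE M21 annotates no host gene on that strand.

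The next sequences belong to the other miRNAs at the low and high ends of the contrast. No seed is shared among them.
let-7c-1-3p: cUGUACAAccuucuagcuuucc
miR-129-2-3p: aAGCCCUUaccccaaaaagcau
miR-3102-3p.2-3p: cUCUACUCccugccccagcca
miR-190b-5p: uGAUAUGUuugauauuggguug
miR-144-5p: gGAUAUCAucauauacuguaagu
miR-452-5p: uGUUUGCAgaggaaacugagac
miR-877-3p: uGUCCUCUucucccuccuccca
miR-217-5p: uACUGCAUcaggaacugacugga
The last set holds 7 of the 10 most abundant miRNAs, shown because each is described by its own level or fold change. miR-10a-5p and miR-10b-5p share a seed and differ by U12A, with the base of miR-10a-5p first.
miR-148a-3p: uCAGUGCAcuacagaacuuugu
miR-126a-3p: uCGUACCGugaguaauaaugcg
miR-99a-5p: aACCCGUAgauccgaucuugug
miR-21a-5p: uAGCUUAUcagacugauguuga
miR-30a-5p: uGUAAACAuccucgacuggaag
miR-10a-5p: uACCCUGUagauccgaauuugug
miR-10b-5p: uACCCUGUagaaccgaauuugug

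The control libraries held 4.86, 7.10, 6.97 and 6.11 M miRNA counts and the high-fat libraries 4.72, 3.70, 11.97 and 3.11 M (M, mega). The mean log10 total differed by −0.0885, high-fat minus control, and an exact two-sided permutation test of 4 against 4 gave p = 0.571, where the smallest p this design allows is 0.0286. Levels are counts scaled to a library of 1 M (CPM) after TMM scaling, a scaling that sets the bulk of miRNAs equal between libraries, and 3 counts, the limit that a count of 0 allows, corresponded to 0.259 to 0.994 CPM. Reads carried no stated molecular identifiers, so such limits cover counting error only. A rise or fall shared by most miRNAs would be scaled away. Levels, fold changes and their intervals are therefore relative to the other miRNAs of a library. Spearman correlations over the tested miRNAs had a median of 0.971 in the 12 pairs of libraries of the same diet and 0.973 in the 16 pairs of different diet. Control replicate 1 stood apart on the first principal component, which took 34.7% of the variance and was led by skeletal muscle miRNAs. Its values are set beside the results that it touches.

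No miRNA passed the test between the diets at week 3. Of the 558 tested, 0 had an adjusted p under 0.05 in the quasi-likelihood test of edgeR, the lowest adjusted p was 0.999, and DESeq2 and limma-voom also called 0. At an unadjusted p under 0.05 there were 10 miRNAs, 1.79% of those tested, with 3 higher (0.538%) and 7 lower (1.25%) on the high-fat diet. DESeq2 gave 6 and limma-voom with sample quality weights gave 33 at the same unadjusted limit. In edgeR the number was 28 without control replicate 1, 21 without high-fat replicate 2, 6 without control replicate 2, 6 without high-fat replicate 4 and 5 without high-fat replicate 1. The high-fat value was higher for 234 miRNAs and lower for 324, a share of 41.9% higher, with a median log2 fold change of −0.05. With the RLE size factors of DESeq2 that share was 49.6% and with library totals alone it was 31.7%. Among the miRNAs with a mean of at least 10 CPM it was 59.3%, with a median of 0.04, so the split between directions changed with the scaling and with the filter. In bulk tissue, fewer cells of a type and less RNA per cell cannot be told apart, which holds for each value that follows.

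**Figure D1:**
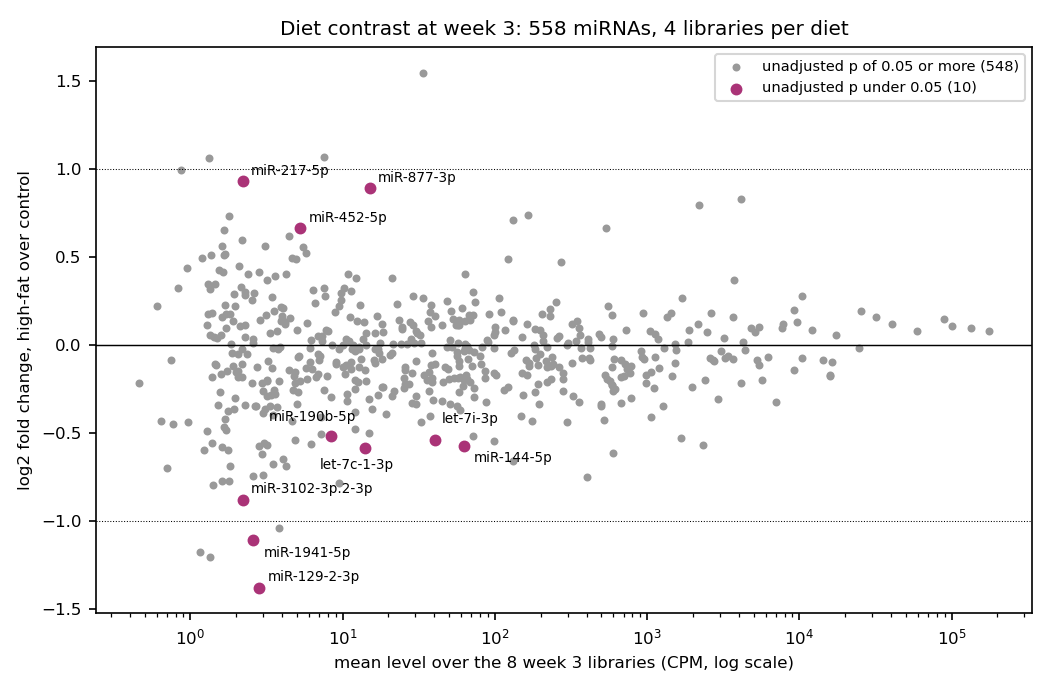
Each point is 1 of the 558 tested miRNAs; the x axis gives its mean level over the 8 week 3 libraries (CPM, log scale) and the y axis its log2 fold change, high-fat over control, with dotted lines at a 2-fold change. The 10 miRNAs at an unadjusted p under 0.05 are coloured and named; all 10 lie below 100 CPM, and the 10 most abundant miRNAs, at the right, lie between −0.02 and 0.19.

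The values of the 2 diets did not overlap for 6 miRNAs, 1.08% of those tested, 4 lower (0.717%) and 2 higher (0.358%) on the high-fat diet. The lower ones were let-7i-3p, miR-129-2-3p, miR-3102-3p.2-3p and miR-345-3p, and the higher ones miR-182-3p and miR-138-5p. miR-345-3p and miR-138-5p are named because their values did not overlap, after their values were seen.

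The smallest unadjusted p belonged to let-7i-3p, the passenger strand of let-7i. Its level was 51.3, 48.3, 53.5 and 39.8 CPM in the controls and 27.0, 38.0, 36.9 and 30.8 CPM in the high-fat libraries. Every high-fat library lay below every control library, the nearest pair being 38.0 against 39.8 CPM. The mean was 48.2 ± 6.0 CPM against 33.2 ± 5.16 CPM (SD, n = 4), a log2 fold change of −0.54 ± 0.17 (SE) with a 95% interval from −0.88 to −0.20. Its unadjusted p was 0.00351 and its adjusted p in edgeR 0.999. Under the other settings and with single libraries left out it kept an adjusted p above 0.05. let-7i-5p, the guide of the same hairpin, stood at 30517, 46559, 32622 and 45097 CPM in the controls and at 53757, 40944, 33712 and 39924 CPM in the high-fat libraries. These values overlapped, with a log2 fold change of 0.12 ± 0.17 that became −0.02 without high-fat replicate 1.

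let-7c-1-3p, the passenger of let-7c-1 from an intron of the noncoding gene Mir99ahg (chromosome 16, 77599657 to 77599750, plus strand), was also among the 7 lower miRNAs. It held 17.2, 17.6, 15.5 and 17.6 CPM in the controls and 6.58, 10.6, 17.1 and 10.3 CPM on the high-fat diet. High-fat replicate 3 lay at the control level and the other 3 below it. Its log2 fold change was −0.58 ± 0.28 (−0.88 without high-fat replicate 3 and −0.40 without high-fat replicate 1), with an unadjusted p of 0.0498 and an adjusted p of 0.999 (edgeR).

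miR-129-2-3p comes from a hairpin in an intron of Mir670hg (chromosome 2, 94241364 to 94241453, minus strand) and is known from neuronal and endocrine cells. It held 4.63, 3.96, 3.26 and 4.91 CPM in the controls, from 21, 29, 26 and 27 counts. The high-fat libraries held 2.68, 1.06, 1.90 and 0.332 CPM, from 11, 4, 22 and 1 counts. The high-fat values lay below all controls, and 1 of them rested on fewer than 3 counts. The fitted log2 fold change was −1.38 ± 0.47, with a 95% interval from −2.35 to −0.41, an unadjusted p of 0.00743 and an adjusted p of 0.999 in edgeR.

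For miR-3102-3p.2-3p only the position of the mature arm was available, which overlaps an annotated exon of Arhgef17 on chromosome 7. This miRNA is on the list of those made without Drosha or without DICER. It held 3.30, 2.46, 2.38 and 3.27 CPM in the controls and 1.70, 1.59, 1.30 and 1.66 CPM in the high-fat libraries. The difference was −0.88 ± 0.35 on the log2 scale without overlap, at a level of a few CPM. miR-190b-5p (chromosome 3, 90070020 to 90070099, plus strand) held 7.71, 11.1, 10.1 and 10.4 CPM in the controls and 6.33, 8.23, 6.13 and 6.96 CPM on the high-fat diet. Here control replicate 1 fell inside the high-fat range, and the log2 fold change was −0.52 ± 0.22.

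miR-144-5p, from a hairpin next to that of miR-451a and active in red blood cell precursors, held 62.6, 77.9, 67.4 and 90.5 CPM in the controls and 42.4, 34.8, 78.0 and 44.8 CPM in the high-fat libraries. The log2 fold change was −0.57 ± 0.27, and high-fat replicate 3 lay within the control range and gave −0.86 when left out. Both arms of miR-1941 had low values in 3 of the 4 high-fat libraries. miR-1941-5p held 1.32, 3.27, 5.13 and 4.0 CPM in the controls and 1.22, 4.25, 0.518 and 0.994 CPM on the high-fat diet. The last of these rested on 3 counts. miR-1941-3p held 3.75, 4.78, 6.89 and 4.73 CPM in the controls and 0.731, 6.64, 1.30 and 1.66 CPM on the high-fat diet. The 0.731 CPM rested on 3 counts. High-fat replicate 2 was the exception for both arms. Their log2 fold changes, −1.11 ± 0.51 and −1.04 ± 0.51, were −2.06 and −2.04 without high-fat replicate 2, with an adjusted p of 0.100 in edgeR for both.

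The 3 miRNAs described next were higher at an unadjusted p under 0.05. miR-452-5p lies with miR-224 in an intron of Gabre (chromosome X, 72262224 to 72262308, minus strand). It held 3.97, 3.55, 5.01 and 3.64 CPM in the controls and 9.01, 4.51, 5.18 and 7.29 CPM in the high-fat libraries, and only high-fat replicate 2 lay within the control range. Its log2 fold change was 0.67 ± 0.27, with an adjusted p of 0.999 (edgeR). miR-224-5p, the other tested miRNA of that intron, differed by −0.02 ± 0.22, and its single high value was 292.3 CPM in high-fat replicate 3.

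miR-877-3p is a mirtron product from an intron of Abcf1 (chromosome 17, 35960730 to 35960814, minus strand). Its level was 9.25, 8.46, 10.4 and 13.6 CPM in the controls and 18.5, 16.5, 6.74 and 37.1 CPM on the high-fat diet. The 4 high-fat libraries thus held both the lowest and the highest value of the 8. The log2 fold change of 0.89 ± 0.37 was 0.39 without high-fat replicate 4 and 1.22 without high-fat replicate 3. miR-217-5p, known from the pancreas, held 0.441, 1.64, 1.63 and 2.36 CPM in the controls and 2.44, 1.86, 3.97 and 3.32 CPM on the high-fat diet. Its value in control replicate 1 rested on fewer than 3 counts, and the log2 fold change was 0.93 ± 0.44.

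**Figure D2:**
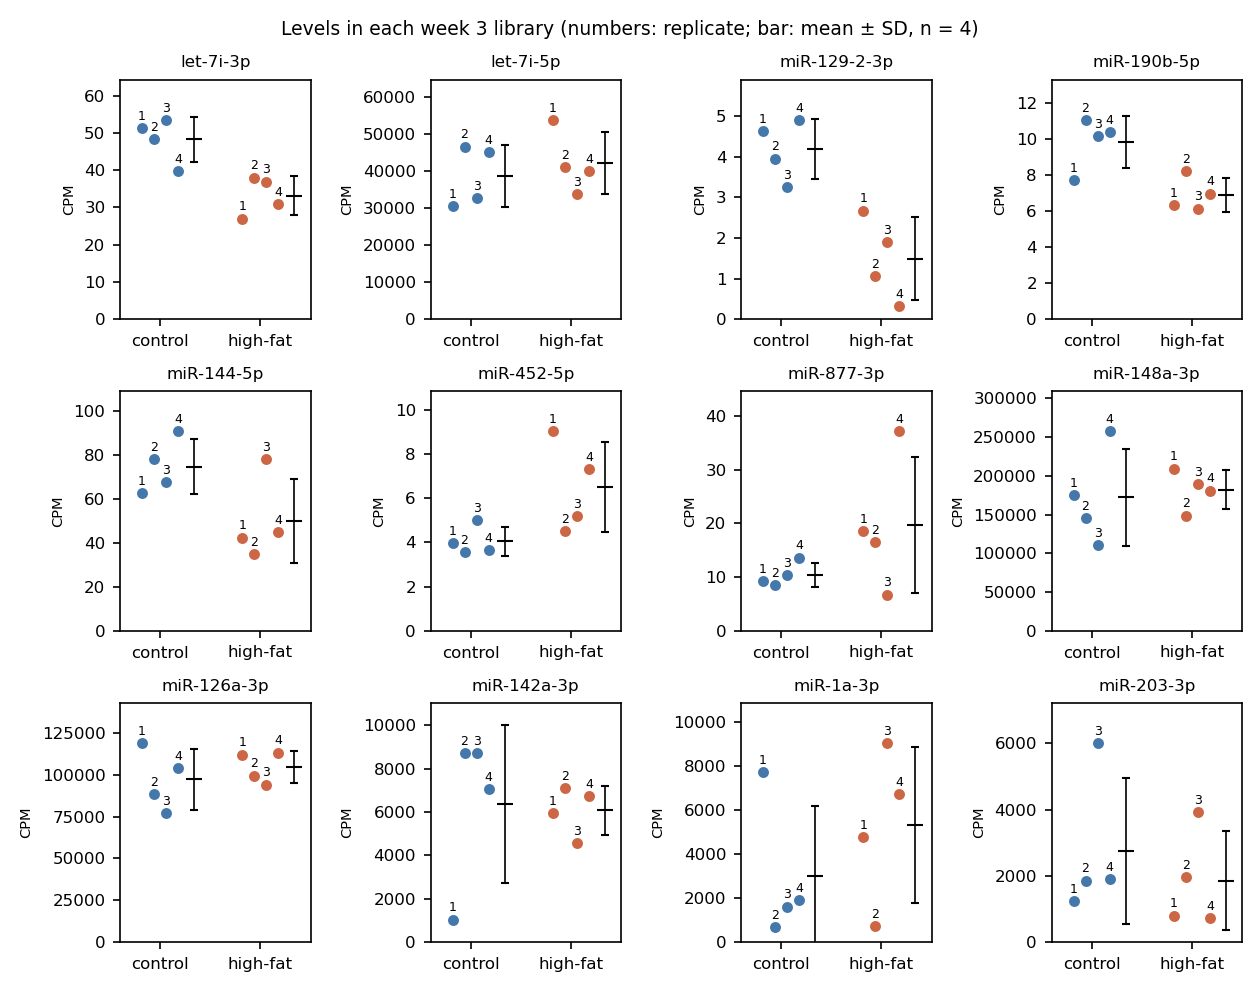
Each panel gives the level of 1 miRNA in CPM (y axis, from 0) in the 4 control and the 4 high-fat libraries of week 3; numbers are replicate labels and bars are the mean ± SD, with the lower end cut at 0 where it would be negative. let-7i-3p and miR-129-2-3p have no overlap between the diets, while let-7i-5p, miR-148a-3p and miR-126a-3p overlap throughout.

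Relative to the others, the miRNAs that carried most of the counts were bounded closely. The 10 most abundant held 67.4% of the counts, and 9 of them had a slightly higher mean on the high-fat diet, with log2 fold changes no larger than 0.19. Since CPM are shares of a library, such values are not independent of each other. miR-148a-3p, an adipocyte-enriched miRNA that promotes adipogenesis, held 175246, 145734, 110633 and 257477 CPM in the controls and 209304, 148931, 188991 and 180923 CPM on the high-fat diet. The controls spanned a wider range than the high-fat libraries and enclosed them. Its log2 fold change was 0.08 ± 0.24 with a 95% interval from −0.43 to 0.59, and it ranged from −0.08 without control replicate 3 to 0.35 without control replicate 4.

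miR-126a-3p, the endothelial miRNA of the Egfl7 gene, held 118862, 88489, 76964 and 103980 CPM in the controls and 111785, 99349, 94057 and 113068 CPM in the high-fat libraries. Its log2 fold change of 0.11 ± 0.15 had a 95% interval from −0.21 to 0.43. miR-21a-5p, raised in many inflamed and fibrotic tissues, differed by 0.08 ± 0.18, with a range of 52216 to 65005 CPM in the controls and 55442 to 66317 CPM on the high-fat diet. miR-99a-5p, of the miR-99/100 family, differed by 0.15 ± 0.20 and miR-143-3p, a miRNA of smooth muscle and stromal cells, by 0.10 ± 0.23. miR-30a-5p, of the pro-adipogenic miR-30 family, differed by 0.19 ± 0.16, with control replicate 1 (32225 CPM) among the high-fat values. The Hox cluster miRNAs miR-10a-5p and miR-10b-5p differed by 0.06 ± 0.16 and −0.02 ± 0.18.

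The 95% interval lay within a 2-fold change in either direction for 363 of the 558 miRNAs (65.1%) and within a 1.5-fold change for 133 (23.8%). At 1000 CPM or more, where 72 miRNAs held 95.1% of the counts, the shares were 88.9% and 55.6%. Below 10 CPM, among 201 miRNAs, the interval lay within a 2-fold change for 33.3%. For all of the 10 most abundant miRNAs it lay within a 2-fold change and for 9 of 10 within a 1.5-fold change. The biological coefficient of variation, the spread between libraries of a group that the model estimated, was 0.359.

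**Figure D3:**
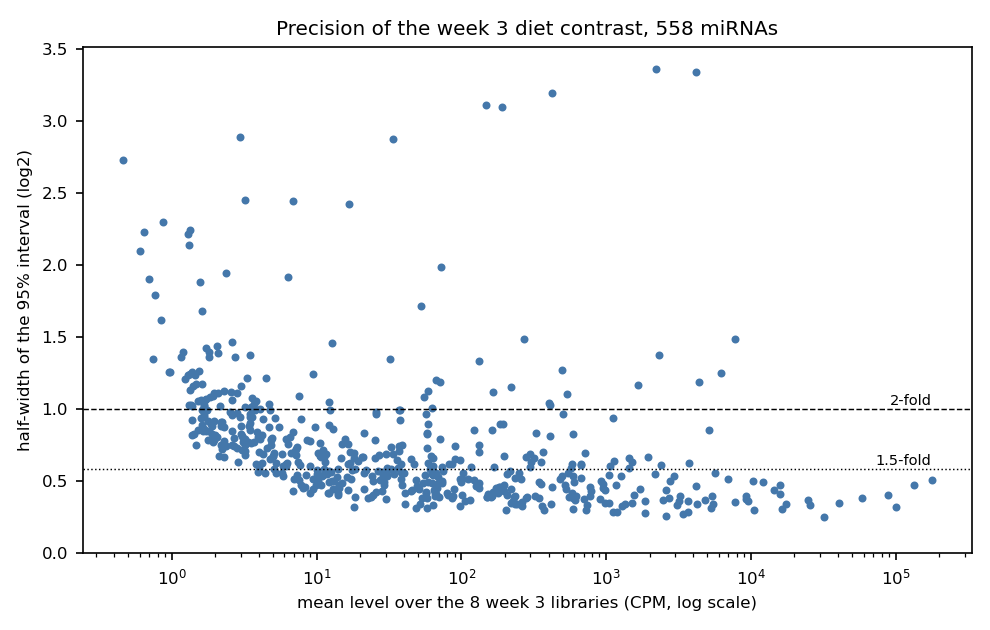
Each point is 1 tested miRNA; the x axis gives its mean level over the 8 week 3 libraries (CPM, log scale) and the y axis the half-width of the 95% interval of its log2 fold change, with lines at a 2-fold and a 1.5-fold change. The half-width narrows with level, and a few miRNAs above 100 CPM, among them the skeletal muscle miRNAs miR-1a-3p and miR-206-3p, stay wide.

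The let-7 family, known for holding cells in a differentiated state and for acting on insulin signalling, was described by arm. Of the 9 tested guides, 4 were higher and 5 lower, with a median log2 fold change of −0.02, against −0.05 over all 558 miRNAs. Summed over the 9 members of the seed family GAGGUAG, the level was 107151 ± 6900 CPM in the controls and 112451 ± 6928 CPM on the high-fat diet (SD, n = 4). The log2 fold change of the sum was 0.07 ± 0.11 with a 95% interval from −0.16 to 0.30. This interval excludes a change of 1.5-fold relative to the other miRNAs. With library totals alone the log2 fold change was −0.00. Of the 12 passengers, 3 were higher and 9 lower, with a median of −0.15. let-7i-3p and let-7c-1-3p were the 2 at an unadjusted p under 0.05. Over all 558 miRNAs 41.9% were higher and 1.79% had an unadjusted p under 0.05 in edgeR. The passenger median stayed below 0 with RLE size factors (−0.10), with library totals (−0.21) and with each single library left out (−0.26 to −0.06). So did the median of all 558, at −0.003, −0.13 and −0.07 to −0.03. The filter at a mean of at least 10 CPM, under which the median of all miRNAs was 0.04, was not applied to the lists. The most abundant passenger, let-7d-3p, held 1393, 1191, 1249 and 1174 CPM in the controls and 942, 1166, 1378 and 1094 CPM on the high-fat diet. Its values overlapped and its log2 fold change was −0.13 ± 0.14.

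The ratio of the 3p to the 5p count of a hairpin does not depend on library scaling and was tested for the 167 hairpins with both arms measured. In limma 0 hairpins passed an adjusted p of 0.05, the lowest adjusted p was 0.960, and 5 (2.99%) had an unadjusted p under 0.05, 1 with a higher (0.599%) and 4 with a lower (2.4%) ratio. let-7i had the smallest unadjusted p. Its log2 ratio of 3p to 5p was −9.21, −9.91, −9.25 and −10.1 in the controls and −11.0, −10.1, −9.83 and −10.3 on the high-fat diet. The means were −9.63 ± 0.47 and −10.3 ± 0.48 (SD, n = 4), a difference of −0.67 ± 0.24 (SE) with an adjusted p of 0.960 in limma, and the ranges overlapped. The ratio of miR-222, whose 3p strand is the anti-adipogenic guide, was lower by −0.87 ± 0.34 and that of miR-99a by −0.53 ± 0.23. That of miR-338 was higher by 0.46 ± 0.22. Over all 167 hairpins the minor arm relative to the major arm was higher for 89 and lower for 78, with a median of 0.03.

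Counts summed by seed gave 407 seed families from the 489 tested miRNAs with a RefSeq mature sequence, of which 51 had more than 1 member. In edgeR 0 families had an adjusted p under 0.05, and 9 (2.21%) had an unadjusted p under 0.05, 3 higher (0.737%) and 6 lower (1.47%). Each of these 9 held 1 tested miRNA that is described above, so their number is not a separate result. None of the 51 families with more than 1 member had an unadjusted p under 0.05. The families named here hold abundant miRNAs. The miR-148/152 family (seed CAGUGCA), which rests almost wholly on miR-148a-3p, differed by 0.08 ± 0.24, and the miR-99/100 family (seed ACCCGUA) by 0.14 ± 0.18. The sum over miR-30a, miR-30c and miR-30e (seed GUAAACA) differed by 0.15 ± 0.15. It is a part of the miR-30 family and leaves out the tested miR-30b-5p and miR-30d-5p. These differed by −0.07 ± 0.13 and −0.10 ± 0.15. The families of miR-27 (seed UCACAGU) and of miR-10 (seed ACCCUGU) differed by 0.10 ± 0.17 and 0.01 ± 0.17. The miR-27 family restrains adipocyte differentiation.

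Lists of miRNAs by role showed no member past the test. Of 27 adipocyte-enriched or adipogenesis-promoting miRNAs, 12 were higher and 15 lower, with a median log2 fold change of −0.01 that was 0.04 with RLE size factors. Their summed level was 187605 to 338601 CPM in the controls and 232033 to 302993 CPM on the high-fat diet. Most of this sum was miR-148a-3p, with a mean of 177155 CPM over the 8 libraries. miR-378a-3p, from an intron of Ppargc1b and tied to mitochondrial metabolism, held 20034, 16759, 13958 and 16599 CPM in the controls and 16216, 16845, 9839 and 17072 CPM on the high-fat diet. Only high-fat replicate 3 lay below the controls, and the log2 fold change of −0.17 ± 0.23 was −0.00 without that library and −0.25 without control replicate 3. Of 16 anti-adipogenic miRNAs, 8 were higher and 8 lower, with a median of −0.02 that was 0.04 with RLE size factors, and miR-27b-3p, a member of the miR-27 family, differed by −0.07 ± 0.14.

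Among 11 brown and beige adipocyte miRNAs 2 were higher and 9 lower, with a median of −0.17 that ranged from −0.25 to −0.11 with single libraries left out and was −0.12 with RLE size factors and −0.22 with library totals. None of the 11 had an unadjusted p under 0.05 in edgeR. miR-455-5p, which promotes brown adipogenesis, held 985.9, 1606, 824.6 and 2868 CPM in the controls and 1660, 1346, 1160 and 1694 CPM on the high-fat diet. The high-fat values lay inside the control range, with a log2 fold change of −0.10 ± 0.31.

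Of 15 inflammation- and obesity-associated miRNAs 9 were higher and 6 lower, with a median of 0.07 that was −0.03 with library totals. After miR-21a-5p its most abundant members were miR-146a-5p and miR-155-5p, which differed by 0.07 ± 0.41 and 0.05 ± 0.61. miR-511-3p, from an intron of the macrophage gene Mrc1, is not on this list and is named for its small unadjusted p. It held 35.2, 31.5, 39.7 and 28.4 CPM in the controls and 25.3, 32.4, 24.9 and 24.2 CPM on the high-fat diet. Of the 4 high-fat values 3 lay below all controls, and the log2 fold change was −0.34 ± 0.18. Of 9 miRNAs hosted by genes of lipid metabolism or fat expansion 5 were higher and 4 lower, with a median of 0.02 that was −0.06 with library totals. miR-335-3p, from an intron of Mest, a gene that marks expanding adipose tissue, held 234.6, 106.3, 44.8 and 108.3 CPM in the controls and 156.1, 80.4, 434.8 and 151.2 CPM on the high-fat diet. The ranges overlapped and the log2 fold change of 0.74 ± 0.54 was 0.07 without high-fat replicate 3 and 1.25 without control replicate 1.

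The next lists hold miRNAs of a cluster, a family or a mode of processing, and some of these lists span several loci. Of 22 members of the growth-promoting miR-17-92 cluster and its paralogues, 4 were higher and 18 lower, with a median of −0.14 that was 0.01 without high-fat replicate 3 and −0.33 without control replicate 1. miR-92a-1-5p went the other way, with 2.42, 6.55, 5.38 and 4.73 CPM in the controls, 19.97, 10.9, 4.84 and 5.30 CPM on the high-fat diet and a log2 fold change of 1.07 ± 0.53. Its 2 high values came from high-fat replicates 1 and 2, and the log2 fold change was 0.51 without high-fat replicate 1 and 1.35 without high-fat replicate 3. Of 71 tested miRNAs of the imprinted Dlk1-Dio3 cluster, 26 were higher and 45 lower, with a median of −0.11 that was 0.01 without control replicate 1 and −0.24 with control replicate 3 left out. Of 9 miRNAs of the Sfmbt2 intron cluster 2 were higher and 7 lower, with a median of −0.13 that was 0.24 without control replicate 3 and −0.43 with control replicate 1 left out. Of 9 Hox cluster miRNAs 4 were higher, with a median of −0.00, and of 11 miRNAs of the growth-related cluster of miR-322 on the X chromosome 4, with a median of −0.02; both medians were positive with RLE size factors. The miR-29 family, known for repressing collagens, had 4 of 7 members higher with a median of 0.16 that was 0.03 without high-fat replicate 3. The 4 higher members were 5p arms, with log2 fold changes from 0.16 to 0.65. The 3p arms were all lower. The most abundant member, miR-29a-3p, differed by −0.14 ± 0.19, miR-29b-3p by −0.50 ± 0.32 and miR-29c-3p by −0.24 ± 0.24. Of 8 miRNAs made without Drosha or without DICER, 2 were higher and 6 lower, with a median of −0.13 that was 0.01 without high-fat replicate 3. miR-451a, the DICER-independent miRNA of red blood cells, held 2129, 2343, 1705 and 4144 CPM in the controls and 2385, 1227, 3124 and 2246 CPM on the high-fat diet. These values overlapped, with a log2 fold change of −0.20 ± 0.30.

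**Figure D4:**
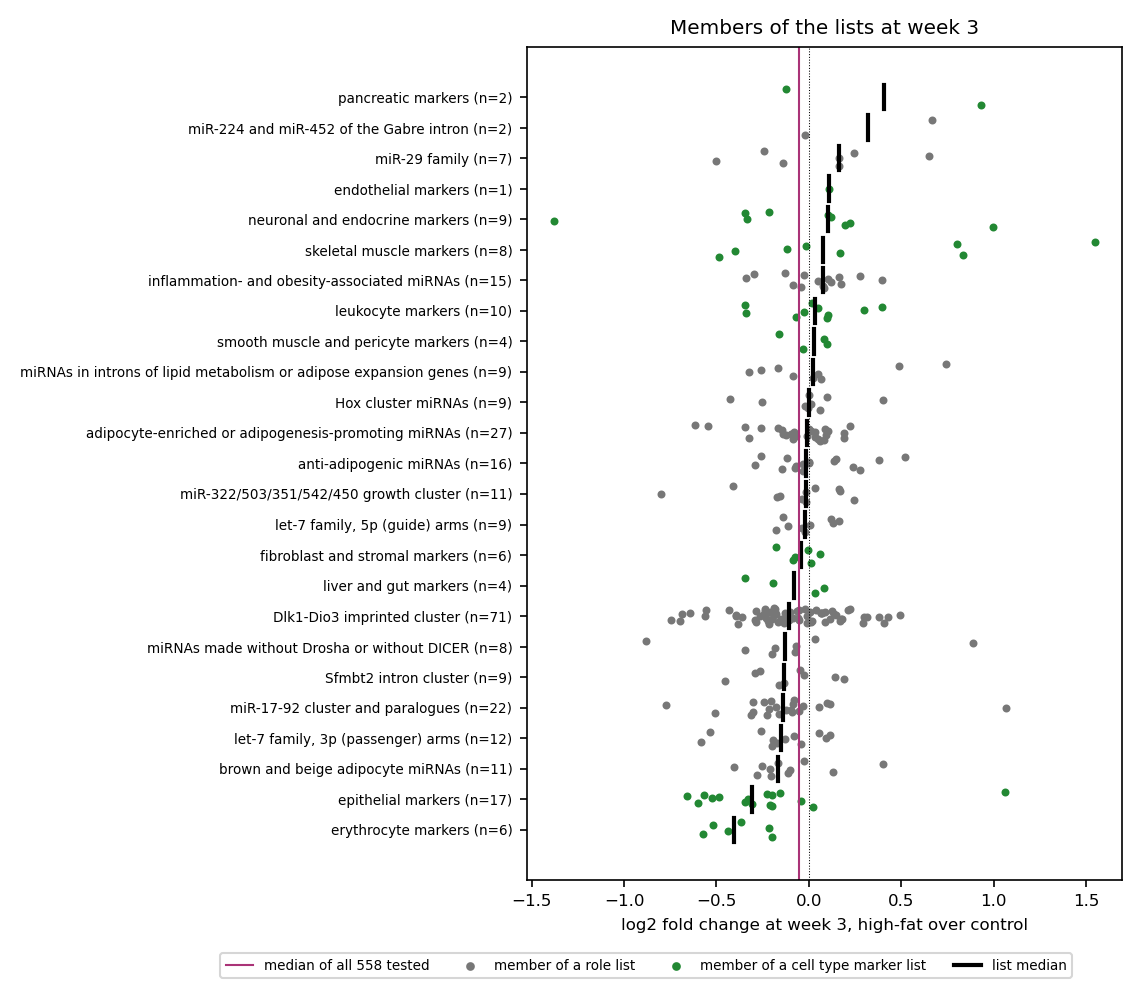
Each point is the log2 fold change of 1 tested member of the list named on the y axis (high-fat over control at week 3, x axis); grey points belong to role lists, green points to cell type marker lists, black bars are list medians and the coloured line is the median of all 558 tested miRNAs. Medians run from −0.40 for erythrocyte markers to 0.40 for pancreatic markers, and those of the role lists lie between −0.17 and 0.32.

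Markers of other cell types varied between libraries of the same diet. The 10 leukocyte markers summed to 3756, 28795, 30371 and 15507 CPM in the controls and to 21707, 23626, 12346 and 21281 CPM on the high-fat diet. Control replicate 1 was low, at 3756 CPM. The 8 tested skeletal muscle markers summed to 13435, 2937, 3153 and 2205 CPM in the controls and to 6534, 1277, 10518 and 17392 CPM on the high-fat diet. High values occurred in both diets, and the 13.6-fold span between the highest and the lowest library was wider than for any other marker list. The muscle miRNAs miR-1a-3p and miR-206-3p had log2 fold changes of 0.83 ± 1.59 and 0.80 ± 1.60, with overlap throughout. Without control replicate 1 they were 1.91 and 1.48. The first was 0.45 without high-fat replicate 3 and the second −1.32 without high-fat replicate 4.

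The epithelial markers include the miR-200 family and the skin miRNAs miR-203 and miR-205. Against 41.9% higher over all 558 miRNAs, 2 of these 17 markers were higher and 15 lower, with a median of −0.31. They summed to 17140, 17482, 23792 and 18919 CPM in the controls and to 10735, 16780, 23516 and 11212 CPM on the high-fat diet. High-fat replicates 1, 2 and 4 lay below all controls, and replicate 3 among them. The median was −0.26 with RLE size factors, −0.36 with library totals and −0.48 to −0.18 with single libraries left out. None of the 17 had an unadjusted p under 0.05 in edgeR. miR-200a-3p, the most abundant, held 6227, 5633, 6000 and 6302 CPM in the controls and 3654, 5923, 7460 and 4038 CPM on the high-fat diet. Its log2 fold change of −0.20 ± 0.27 was −0.40 without high-fat replicate 3 and −0.06 without high-fat replicate 1. miR-182-3p, with 0.441 to 1.13 CPM in the controls and 1.22 to 2.66 CPM on the high-fat diet, was the member that lay higher without overlap. Its counts were low, with 2, 5, 9 and 6 in the controls and 5, 10, 20 and 5 on the high-fat diet.

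All 6 tested erythrocyte markers were lower, where 41.9% of all 558 miRNAs were higher. Their median of −0.40 was −0.08 without control replicate 1 and −0.53 without control replicate 3. miR-144-5p was the 1 with an unadjusted p under 0.05 in edgeR. The 6 markers are not independent of each other. They include both arms of miR-144, whose hairpin lies next to that of miR-451a, and arms of miR-486a and miR-486b. They summed to 3168, 2984, 2272 and 5004 CPM in the controls and to 3059, 1629, 3825 and 2837 CPM on the high-fat diet, so the sums overlapped. Fibroblast and stromal markers, led by miR-199a-3p, summed to 16413 to 18934 CPM in the controls and to 13388 to 19322 CPM on the high-fat diet. Of the other marker lists, 6 of 10 leukocyte markers were higher (median 0.03), 4 of 8 skeletal muscle markers (0.07), 2 of 4 smooth muscle and pericyte markers (0.03), 5 of 9 neuronal and endocrine markers (0.10) and 2 of 6 fibroblast and stromal markers (−0.04), and each of these medians changed sign with RLE size factors or library totals. Of liver and gut markers 2 of 4 were higher (−0.08, and −0.21 without high-fat replicate 3) and of pancreatic markers 1 of 2 (0.40, and 0.15 without high-fat replicate 3). The part of these cell type markers in the differences of other miRNAs was not tested.

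**Figure D5:**
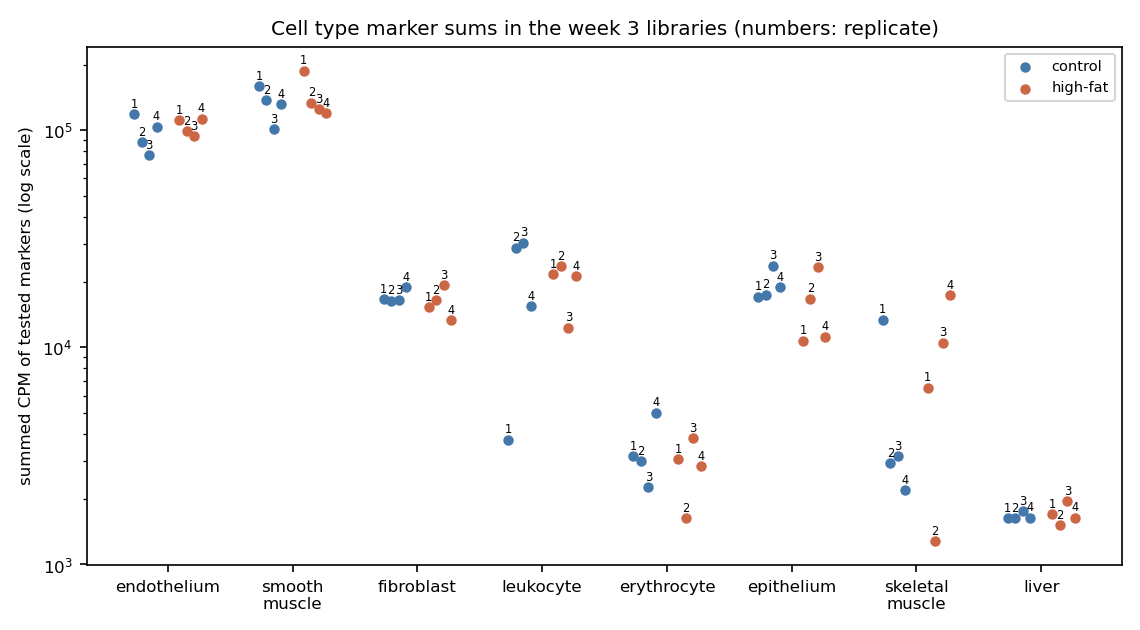
Summed CPM of the tested markers of 8 cell types (y axis, log scale) in each of the 8 week 3 libraries, with controls and high-fat libraries in different colours and replicate labels beside the points. Control replicate 1 is low in leukocyte markers (3756 CPM) and high in skeletal muscle markers (13435 CPM), and no cell type separates the diets.

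The diet contrast at week 3 was set against those at week 1 and at day 1, which rest on other libraries, by the difference of the diet effects. Between week 3 and week 1, 0 miRNAs had an adjusted p under 0.05 in edgeR (lowest 0.546), and 33 had an unadjusted p under 0.05 (5.91%), 16 with a higher (2.87%) and 17 with a lower (3.05%) diet effect at week 3. miR-18b-5p, of a miR-17-92 paralogue, had the smallest p. Its diet effect was −3.46 ± 0.90 at week 1 and −0.18 ± 0.70 at week 3, a difference of 3.28 ± 1.18. Its level was low, with a mean of 2.05 CPM over the 8 week 3 libraries, where 3 counts corresponded to 0.259 to 0.994 CPM. The epithelial miR-205-5p had a diet effect of 1.66 ± 0.57 at week 1 and −0.53 ± 0.56 at week 3, a difference of −2.19 ± 0.80. For let-7c-1-3p the effects were 0.48 ± 0.28 and −0.58 ± 0.28, a difference of −1.06 ± 0.40, and for miR-369-3p of the Dlk1-Dio3 cluster 0.82 ± 0.28 and −0.24 ± 0.28, a difference of −1.06 ± 0.40. The effect of miR-3102-3p.2-3p was 0.45 ± 0.32 at week 1, and the difference was −1.32 ± 0.48.

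Between week 3 and day 1, 0 miRNAs had an adjusted p under 0.05 in edgeR (lowest 0.991) and 11 had an unadjusted p under 0.05 (1.97%), 5 with a higher (0.896%) and 6 with a lower (1.08%) diet effect at week 3. miR-452-5p had a diet effect of −0.40 ± 0.26 at day 1 against 0.67 ± 0.27 at week 3, a difference of 1.06 ± 0.37. miR-677-5p had 1.49 ± 0.60 at day 1 against −0.78 ± 0.60 at week 3, a difference of −2.27 ± 0.84. miR-345-3p held 138.3, 116.8, 115.1 and 126.3 CPM in the controls and 93.5, 113.4, 96.5 and 112.7 CPM in the high-fat libraries at week 3. Its ranges did not overlap there, with a log2 fold change of −0.26 ± 0.18, against 0.41 ± 0.18 at day 1, a difference of −0.67 ± 0.25. The let-7i-3p effect was −0.15 ± 0.17 at day 1 and −0.21 ± 0.17 at week 1, and neither difference from week 3 had an unadjusted p under 0.05.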

How the data were processed

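The members and lists were chosen with earlier results of these data known. The deposited table held raw counts per mature miRNA name, made by the authors with FastQC, Trim Galore, Bowtie2 and featureCounts on mm10, per the submitters' processing notes; versions, the miRNA annotation and the handling of reads with several matches are not given in any source used here, so near-identical family members and miRNAs with several genomic copies are uncertain. Libraries were made from 1 µg of total RNA, per the labels' protocols. Diet, time and replicate came from sample titles.

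The filter filterByExpr (minimum count 10, minimum total 15) kept 558 of 1907 names, of which 440 had 0 counts in all 24 libraries; names left out held 0.0179% of the counts. Contrasts came from 1 model of the 6 groups over 24 libraries in edgeR 4.0.16 (R 4.3.3; TMM, robust quasi-likelihood test, Benjamini-Hochberg adjusted p under 0.05). Scaled CPM are given with the SD over 4 libraries and log2 fold changes with the SE. Arm ratios, log2 of 3p over 5p counts with a pseudocount of 0.5, were tested with limma 3.58.1. The steps were tested on simulated data with fold changes larger than any in the week 3 diet contrast. The detection of changes of the size seen here was not tested. Totals were compared by an exact permutation test. Alternatives comprised RLE size factors, library totals, other filters, week 3 libraries alone, a replicate block, DESeq2 1.42.0, limma-voom with sample quality weights and leaving out each library. The text names a selection of the 10 miRNAs with the smallest p in each direction and of the 10 most abundant. The selection also draws on the most abundant members of the 25 lists and on seed families that hold abundant miRNAs. Arm ratios and contrasts of diet effects are named by the smallest p. No 2 libraries of a diet matched within sampling noise in a chi-square test (lowest value per degree of freedom 221). Among pairs of different diets the lowest value was 67.6, for control replicate 2 and high-fat replicate 2. Mature sequences were matched by name for 1623 of the 1907 names in the RefSeq table for GRCm38.p6, and positions and host genes come from that table and GENCODE M21.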

Additional observations from a re-analysis of the deposited data

Results flagged for a closer look

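In groups of 4 libraries, the highest or lowest value was set against the others by Dixon's test at the 95% level, which chance passes in about 1 of 20 groups. Of 176 groups tested 15 had such a library, and no explanation of them was tested.

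High-fat replicate 3 stood apart in 5 of them. It held 9839 CPM of miR-378a-3p where the other high-fat libraries held 16216 to 17072, and 16105 CPM summed over the miRNAs hosted by genes of lipid metabolism or fat expansion, which miR-378a-3p leads. It held 292.3 CPM of miR-224-5p against 138.6 to 150.8, hence 297.5 CPM over miR-224 and miR-452, and 186.7 CPM of miR-322-3p against 289.4 to 308.6.

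High-fat replicate 2 held 6.64 CPM of miR-1941-3p against 0.731 to 1.66, 32.4 CPM of miR-511-3p against 24.2 to 25.3, and a log2 ratio of 3p to 5p of −0.60 for miR-338 against 0.12 to 0.21. High-fat replicate 4 held 9261 CPM of miR-206-3p against 282.5 to 832.9, and high-fat replicate 1 held 74737 CPM summed over the inflammation- and obesity-associated miRNAs against 63784 to 65583.

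Among the controls, replicate 1 held 13435 CPM of skeletal muscle markers against 2205 to 3153. Replicate 2 had a log2 ratio of −0.89 for miR-338 against −0.39 to −0.32. Replicate 3 held 6016 CPM of miR-203-3p against 1252 to 1907, and 1766 CPM of liver and gut markers against 1630 to 1645. Replicate 4 held 18934 CPM of fibroblast and stromal markers against 16413 to 16658.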

How the results depend on the processing

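The counts of miRNAs, seed families and hairpins at an adjusted p under 0.05 were 0 in the settings run, for week 3 and for both contrasts of diet effects. The number of miRNAs at an unadjusted p under 0.05 was 10, and 46 with no filter (1467 tested), 4 at a mean CPM of at least 10, 6 with DESeq2 and 33 with limma-voom. With single libraries left out it ran from 5, leaving out high-fat replicate 1, to 28, leaving out control replicate 1. Beyond the number of miRNAs tested, the cause was not tested. With the replicate block in the week 3 libraries alone it was 6. Correlations of same-numbered libraries were −0.18, 0.37, −0.11 and −0.30, so only replicate 2 correlated positively with its own number. Control replicate 2 and high-fat replicate 2 were each other's best match and had the highest Spearman correlation of all pairs, 0.989. For the other libraries the numbers did not pair the diets. The median log2 fold change of all miRNAs was −0.05, −0.00 with RLE size factors, −0.13 with library totals and 0.04 at a mean CPM of at least 10.

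Small log2 fold changes changed sign. With RLE size factors, DESeq2, no filter and a mean CPM of at least 10, miR-10b-5p was 0.0338, 0.0338, 0.0290 and 0.0799 and miR-224-5p 0.0283, 0.0311, 0.0277 and 0.0705. That CPM filter gave 0.0255 for miR-27b-3p, 0.00714 for miR-455-5p, 0.0332 for miR-142a-3p and 0.0123 for miR-199a-3p. Library totals gave −0.00647 for miR-10a-5p, −0.0484 for miR-142a-5p, −0.00409 for the seed GAGGUAG and −0.0525 for ACCCUGU. miR-455-5p was 0.0361 with limma-voom and 0.0589 with the replicate block, which gave 0.22 for miR-142a-3p and −0.53 for miR-206-3p.

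With single libraries left out the ranges that crossed 0 were −0.0830 to 0.35 for miR-148a-3p, −0.0755 to 0.20 for miR-143-3p, −0.0190 to 0.23 for let-7i-5p, −0.13 to 0.12 for miR-10b-5p, −0.0148 to 0.16 for miR-10a-5p, −0.31 to 0.38 for miR-455-5p, −0.0203 to 0.37 for miR-379-5p and −0.54 to 0.0176 for miR-669c-5p. They were −0.23 to 0.0151 for miR-29a-3p, −0.33 to 0.0891 for miR-224-5p, −0.39 to 0.14 for miR-451a, −0.26 to 0.44 for miR-142a-5p, −0.42 to 0.12 for miR-142a-3p, −1.21 to 0.15 for miR-203-3p, −1.32 to 1.48 for miR-206-3p, −0.58 to 0.22 for miR-128-3p and −0.41 to 0.13 for miR-375-3p. For seeds they were −0.0792 to 0.34 for CAGUGCA, −0.00817 to 0.20 for UCACAGU and −0.0804 to 0.14 for ACCCUGU.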
